A study of Mus musculus with 4 samples.

Results

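The guidance genes described here are 37 genes for Eph receptors, ephrins, Slits, Robo receptors, netrins and netrin receptors, followed through the open chromatin of mouse hair follicle stem cells, the CD34-positive cells of the resting follicle. Open chromatin was mapped by ATAC-seq, which cuts and tags accessible DNA with a transposase. The double-knockout (dKO) group was 2 male mice, numbers 14 and 16, that carried Sox9-CreER with NFIBfl/fl;NFIXfl/fl and the reporter R26-YFPfl/fl. The wild-type (WT) group was 2 male mice, numbers 13 and 15, labelled as littermates, with NFIBfl/fl;NFIXfl/fl and R26-YFPfl/fl but no Cre. All were at postnatal day 70 in second telogen, the resting phase. Both groups therefore shared the floxed alleles and differed by the inducible Cre, driven by Sox9, whose inducing agent and timing the sources used here do not give. Live Sca-1-negative, integrin alpha 6-positive, CD34-positive cells were sorted from back skin, and dKO cells were in addition YFP-positive, so the gates also differed. The deleted genes encode NFIB and NFIX, DNA-binding proteins of the nuclear factor I (NFI) family, and the question is how open chromatin differs without them.

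A region was counted for a gene when the summit of its strongest peak lay in or within 100 kb of that gene's body and no other protein-coding gene was nearer, and regions were classed as dKO-only, WT-only or shared by whether the peak list of one or both genotypes covered them. This gave 322 regions for the guidance genes, out of 70899 regions assigned to any protein-coding gene and 79122 in all. The authors deposited 1 peak list per genotype, so differences have no replicate check and no p-value was computed. Intervals are 95% Wilson intervals of counting error, and a nearest gene is not a shown target. In pooled cells, fewer cells with an open region and less opening per cell cannot be told apart. The farthest shared region counted lay 99.2 kb from Ephb3 and the nearest one left out lay 107.0 kb from Robo2.

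Eph receptors are receptor tyrosine kinases that bind ephrins on the neighbouring cell and signal in both directions, which separates cells and sets tissue boundaries. Class A ephrins are held in the membrane by a lipid anchor and class B ephrins span it. Slits are secreted proteins that repel cells and axons through Robo receptors, and netrins are laminin-like secreted proteins that attract through Dcc and Neo1 or repel through Unc5 receptors. All of these families are well known from axon guidance, and several members also act in epithelia and blood vessels. In skin, Eph and ephrin signalling is known to affect the division of epidermal and follicle cells.

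The dKO list held 63548 peaks and the WT list 68197 peaks, and 242 dKO and 266 WT peaks fell to the guidance genes. The median pileup at the summit was 38 in the dKO list and 73 in the WT list. The lowest local background was 2.73 in the dKO list and 5.29 in the WT list, a WT to dKO ratio of 1.94. Pileups are not scaled for depth, so pileups of the lists below are given side by side and not compared. Of 13 markers of follicle stem cells and basal follicle epithelium, 12 had a peak within 1 kb of a start or gene end in the dKO list and 12 in the WT list. The exception in both lists was Trp63. The same count was 2 of 6 for fibroblast, 3 of 5 for melanocyte, 2 of 5 for endothelial, 0 of 5 for immune and 4 of 6 for Schwann cell and neuron markers, each the same in both lists. The part of other cell types in the results was not tested.

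The guidance genes had a larger share of both dKO-only and WT-only regions than all assigned regions, and a net share close to theirs. Of the 322 regions, 57 were dKO-only (17.7%, interval 13.9 to 22.2), against 12.8% of all regions assigned to protein-coding genes. There were 83 WT-only regions (25.8%, 21.3 to 30.8), against 21.2% of all assigned regions. The other 182 were shared (56.5%, 51.1 to 61.8), against 66.0% of all assigned regions. The sets differed in make-up. Gene-end regions, within 1 kb of either end of a gene body, were 25 of the 322 and 12466 of the 70899 assigned regions. Of those 12466, 90.4% were shared. Genes over 300 kb held 117 of the 322 and 8365 of the 70899. The part of position and gene length in the larger single-genotype shares was not tested. The net share, dKO-only minus WT-only, was -8.07% for the guidance genes and -8.35% for all assigned regions. With lists cut to equal length it was 2.01% for the guidance genes and -2.58% for all assigned regions, so its sign changed with that setting.

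The 13 ligand genes (ephrins, Slits and netrins) had 16 dKO-only and 43 WT-only regions among 139, a dKO-only share of 11.5% (7.21 to 17.9) and a WT-only share of 30.9% (23.9 to 39.0). The 24 receptor genes had 41 dKO-only and 40 WT-only regions among 183, shares of 22.4% (17 to 29.0) and 21.9% (16.5 to 28.4). The ligand net share was -19.4% and the receptor net share 0.546%. Over all assigned regions the shares were 12.8% dKO-only and 21.2% WT-only and the net share -8.35%, so the ligand dKO-only share and the receptor WT-only share were close to these. Single genes moved the values. Without Slit3 the ligands had 13 dKO-only and 27 WT-only regions and a net share of -13.5%, and without Efna5 they had 9 and 30 and a net share of -25.6%. Without Ephb1 the receptors had 32 dKO-only and 40 WT-only regions and a net share of -4.85%, and without Epha4 they had 41 and 32 and a net share of 5.59%. Over the 10 alternative settings the ligand net share ran from -25.3% to -4.55% and that of the receptors from -5.06% to 8.14%. That of all assigned regions ran from -13.5% to -2.07%, so it was negative in all 10 settings, as for the ligands. Pooling roles into ligands and receptors was chosen after the data were seen, and the difference between them was not tested.

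**Figure D1:**
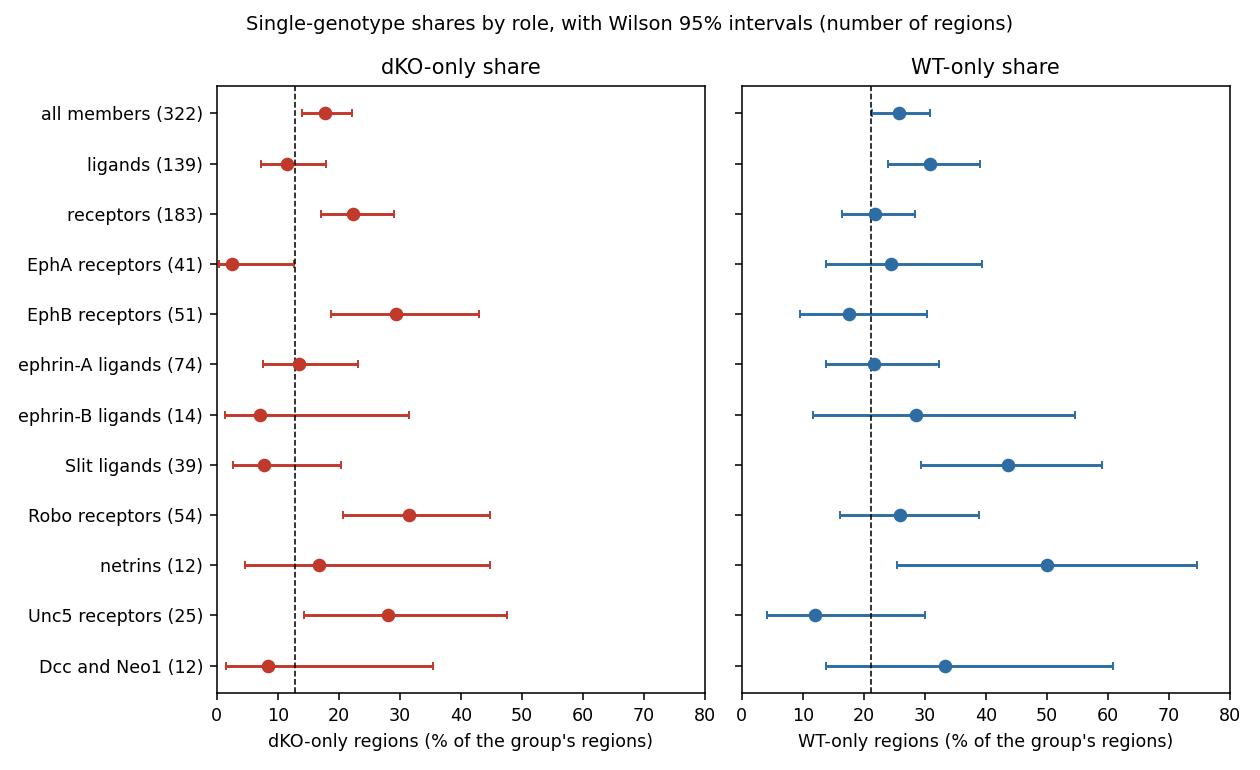
Share of regions that were dKO-only (left) and WT-only (right), in percent of the regions of each role, with the number of regions in brackets; points are shares, bars are 95% Wilson intervals and the dashed line is the share over all assigned regions, 12.8% dKO-only and 21.2% WT-only. Netrins and Slit ligands have the largest WT-only shares, 50.0% of 12 and 43.6% of 39 regions, with intervals above the line. Slit3 holds 16 of the 17 Slit WT-only regions and Ntn1 4 of the 6 netrin ones, so these shares rest mainly on single genes. Robo and EphB receptors have the largest dKO-only shares, 31.5% and 29.4%. Ephb1 holds 9 of the 15 EphB dKO-only regions, and Robo1 and Robo2 hold 8 each of the 17 Robo ones. The intervals treat regions of one gene as independent.

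Single-genotype regions were concentrated in a few genes. Ephb1, Robo1, Robo2 and Efna5 held 32 of the 57 dKO-only regions (56.1%), and Slit3, Efna5, Robo2 and Epha4 held 46 of the 83 WT-only regions (55.4%). Of the 37 genes, 32 had at least 1 region. More dKO-only than WT-only regions were found at 7 of these 32 genes (21.9%), against 16.5% of all genes with a region. More WT-only regions were found at 13 (40.6%), against 34.2%. The remaining 12 had equal numbers, 8 of them only shared regions. A difference of 2 or more towards dKO was found at 4 genes (12.5%, against 5.45% of all genes with a region) and towards WT at 8 genes (25%, against 14.1%). The 37 guidance genes were longer, with a median of 104.9 kb against 23.6 kb for all genes with a region, and held a median of 4 regions (genes with none included) against 2, so these gene counts are not on an equal footing. The same holds for the shares of all genes given below beside single genes, since a gene with few regions cannot reach a large excess. Those single genes were also picked by this difference.

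**Figure D2:**
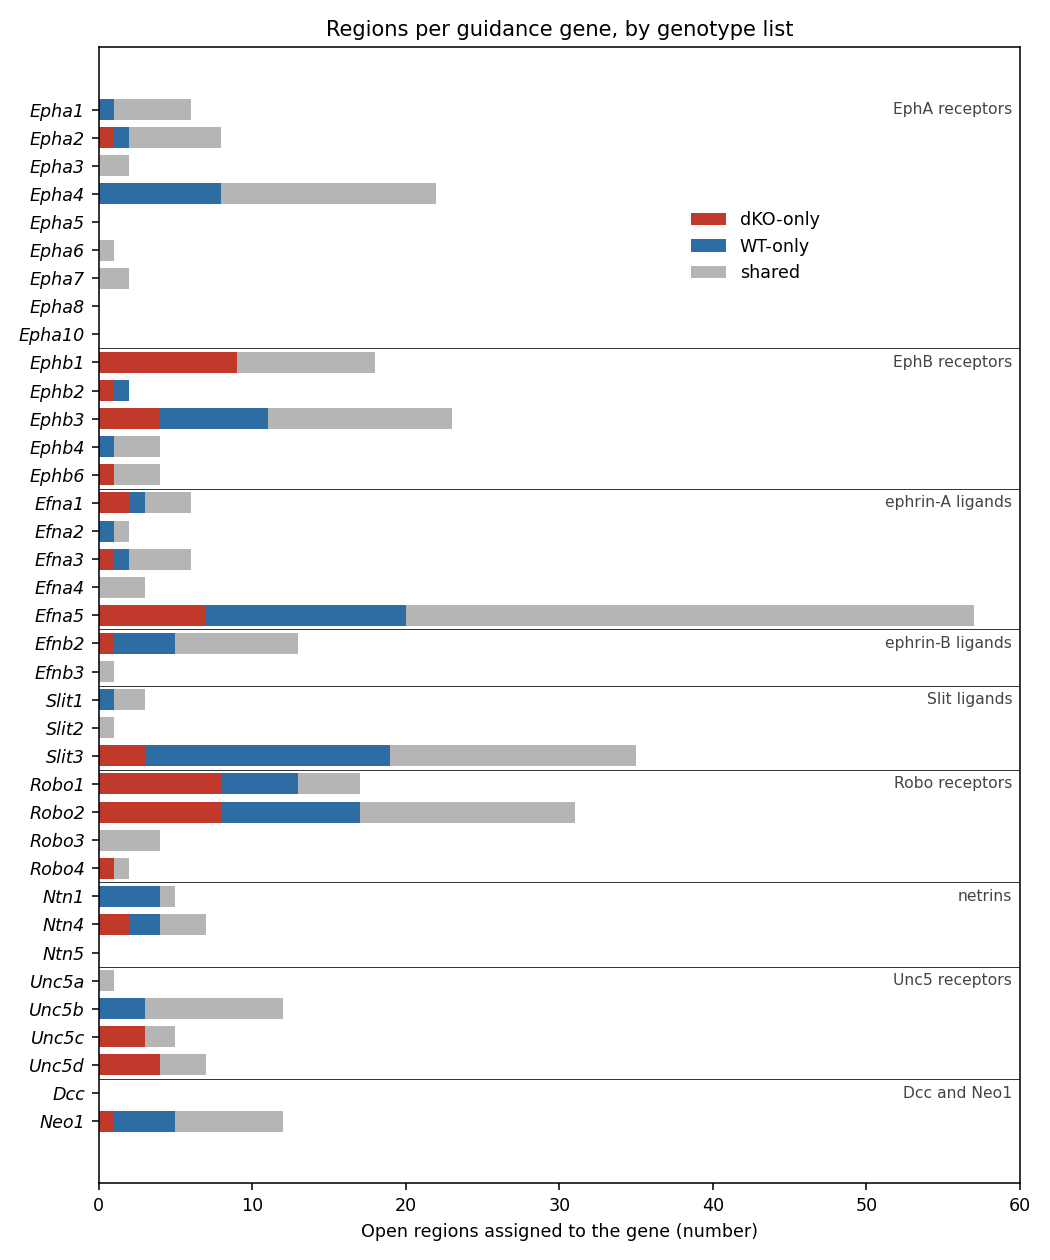
Number of open regions assigned to each of the 37 guidance genes, in order of role; bar lengths are counts of dKO-only, WT-only and shared regions. Efna5 has the most regions, 57, Slit3 the most WT-only regions, 16, and Ephb1 the most dKO-only regions, 9, while Epha5, Epha8, Epha10, Ntn5 and Dcc have none.

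Gene starts were nearly all alike in both lists. Of 32 guidance genes with a start in the RefSeq promoter table, 25 (78.1%) had a peak within 1 kb of a start in both lists, against 59.9% of 17492 protein-coding genes. No start was open in the WT list alone, against 1.34% of genes. The 2 starts with a peak in the dKO list alone (6.25%, against 1.22%) were those of Epha5 and Ephb2. Epha5, an ephrin-A receptor known mainly from the brain, had a dKO peak of pileup 14 and fold 4.02 (chromosome 5, 84417108 to 84417462) over its start, and no WT peak within 1 kb. That summit also lies in the shorter gene Gm42163, to which the nearest-gene rule gave it, so Epha5 has 0 regions in the counts. The Ephb2 peak had pileup 13 and fold 3.76 (chromosome 4, 136835344 to 136835655), with its summit 479 bp downstream of the start. The lowest pileup of the dKO list was 9 and that of the WT list 14. The 5 genes whose starts had no peak in either list were Epha6, Epha8, Epha10, Robo4 and Unc5a.

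The 250 bases before the start are printed for these genes with a dKO peak alone at the start, and for Ephb1, Unc5c, Epha4 and Slit3, 4 of the genes whose starts were open in both lists while their dKO-only and WT-only regions differed by 3 or more. These 4 were chosen as examples after their values were seen, and Ephb3, Efna5, Efnb2, Robo1, Unc5b and Neo1 fit the same description. Sequences are from RefSeq on GRCm38.p6, 5′ to 3′ along the gene, and capitals mark the NFI core TTGGC or its other strand GCCAA.
Epha5 (chr5:84417383-84417632, minus strand): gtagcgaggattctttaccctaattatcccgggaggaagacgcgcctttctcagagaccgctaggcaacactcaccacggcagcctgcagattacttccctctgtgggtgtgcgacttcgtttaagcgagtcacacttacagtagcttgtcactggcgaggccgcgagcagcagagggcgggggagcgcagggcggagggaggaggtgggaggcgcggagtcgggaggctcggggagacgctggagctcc
Ephb2 (chr4:136836013-136836262, minus strand): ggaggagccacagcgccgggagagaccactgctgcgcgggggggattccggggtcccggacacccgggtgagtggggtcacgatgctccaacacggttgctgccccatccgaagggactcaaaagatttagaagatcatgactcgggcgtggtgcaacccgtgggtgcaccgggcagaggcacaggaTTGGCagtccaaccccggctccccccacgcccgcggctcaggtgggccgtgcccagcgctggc
Ephb1 (chr9:102354694-102354943, minus strand): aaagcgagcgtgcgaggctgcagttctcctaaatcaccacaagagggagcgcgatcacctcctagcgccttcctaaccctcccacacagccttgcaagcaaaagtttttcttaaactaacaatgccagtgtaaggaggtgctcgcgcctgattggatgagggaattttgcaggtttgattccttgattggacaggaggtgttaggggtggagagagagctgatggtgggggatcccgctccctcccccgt
Unc5c (chr3:141465314-141465563, plus strand): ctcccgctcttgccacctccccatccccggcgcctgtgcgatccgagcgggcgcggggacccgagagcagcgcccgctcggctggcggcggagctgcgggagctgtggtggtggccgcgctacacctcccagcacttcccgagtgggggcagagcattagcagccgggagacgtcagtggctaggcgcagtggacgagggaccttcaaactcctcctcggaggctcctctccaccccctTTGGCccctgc
Epha4 (chr1:77515089-77515338, minus strand): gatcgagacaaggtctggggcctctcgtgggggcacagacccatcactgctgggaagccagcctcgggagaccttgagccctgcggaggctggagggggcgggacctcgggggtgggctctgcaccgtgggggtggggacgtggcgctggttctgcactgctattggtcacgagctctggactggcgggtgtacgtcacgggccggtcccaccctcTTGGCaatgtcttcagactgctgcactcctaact
Slit3 (chr11:35121206-35121455, plus strand): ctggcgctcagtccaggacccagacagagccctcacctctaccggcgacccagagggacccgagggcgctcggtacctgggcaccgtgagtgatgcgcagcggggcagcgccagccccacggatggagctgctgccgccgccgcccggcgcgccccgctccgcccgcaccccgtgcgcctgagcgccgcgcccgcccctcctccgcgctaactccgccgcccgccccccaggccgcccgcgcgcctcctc
NFI proteins bind as dimers to TTGGC, 5 bases of any kind and GCCAA, and more weakly to one core alone. Both strands were searched. In the 6 stretches there was 1 core each before Ephb2, Unc5c and Epha4, and none before Epha5, Ephb1 and Slit3. A core was found in 18 of 37 promoters of the 32 guidance genes in the table (48.6%) and in 43.0% of 21263 promoters of protein-coding genes. The full site was found in 0 of the 37 and in 7 of the 21263 (0.0329%), and each full site also counts as holding the core. These are matches of letters only.

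Among the EphA receptors, most single-genotype regions were WT-only and most were at Epha4. The 9 genes had 1 dKO-only and 10 WT-only regions among 41. The dKO-only share was 2.44% (0.432 to 12.6), against 12.8% of all assigned regions. The WT-only share was 24.4% (13.8 to 39.3), close to the 21.2% of all assigned regions, where WT-only regions also outnumbered dKO-only ones. Epha4 (chromosome 1, 77367182 to 77515107), a receptor that binds ephrins of both classes, had 0 dKO-only, 8 WT-only and 14 shared regions. Of all genes with a region, 0.524% had an excess of 8 or more WT-only regions, but their median was 2 regions against 22 at Epha4. Of the 8, 7 lay in the gene body, between 17.8 and 144.0 kb from its start, and 3 followed each other without a shared region between them, from 77484344 to 77497715. The strongest lay 46.1 kb beyond the 3′ end (77320768 to 77321506), with a pileup of 80 and a fold of 12.9, at the 64.9 percentile of WT strength. The folds of the 8 ran from 2.27 to 12.9 with a median of 4.29. The start was covered in both lists, with a pileup of 159 in the dKO list and 334 in the WT list.

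The other EphA receptors had mostly shared regions or none. Epha2, the main EphA receptor of epidermal keratinocytes, had 1 dKO-only, 1 WT-only and 6 shared regions, and Epha1 had 0, 1 and 5. Epha3 and Epha7 had 2 shared regions each. Epha6 had 1 shared region although the gene is 969.5 kb long. Epha5, Epha8 and Epha10, the last of which encodes a receptor without kinase activity, had 0 regions. Without Epha4 the EphA receptors had 1 dKO-only and 2 WT-only regions among 19.

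The EphB receptors had 15 dKO-only and 9 WT-only regions among 51, and the excess was at Ephb1. These were shares of 29.4% (18.7 to 43.0) and 17.6% (9.57 to 30.3), against 12.8% and 21.2% of all assigned regions. Ephb1 (chromosome 9, 101922128 to 102354693) had 9 dKO-only, 0 WT-only and 9 shared regions. Of all genes with a region, 0.115% had an excess of 9 or more dKO-only regions, but their median was 2 regions against 18 at Ephb1. The 9 dKO-only regions were spread from 49.0 kb before the start to 509.0 kb after it, with 7 in the 432.6 kb gene body, among shared ones. The strongest (102317179 to 102318321) lay 36.9 kb into the gene, with a pileup of 52 and a fold of 11.55, at the 69.5 percentile of dKO strength. Another, 97.1 kb into the gene, had a fold of 8.32 and lay at the 50.9 percentile. The rest were at or below the 35.8 percentile, the weakest, of fold 2.68, at the 0.15 percentile. The start was covered in both lists, with a pileup of 195 in the dKO list and 212 in the WT list.

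Ephb3, a receptor known from the crypts of the intestine, had 4 dKO-only, 7 WT-only and 12 shared regions in and around a body of 18.7 kb (chromosome 16, 21204620 to 21223309). All 4 dKO-only and 6 of the 7 WT-only regions lay outside the gene, up to 113.8 kb from its start. Its start and a region 3.4 kb past its 3′ end (21225880 to 21227404) were among the 5 strongest shared regions of the guidance genes in the WT list. The start had a pileup of 374 in the dKO list and 776 in the WT list, and the region past the end 167 in the dKO list and 619 in the WT list. Ephb2 had 1 dKO-only, 1 WT-only and 0 shared regions in 188.8 kb. Ephb4, a receptor of venous endothelium, had 0, 1 and 3, and Ephb6, which lacks kinase activity, had 1, 0 and 3. An excess of 3 or more WT-only regions, as at Ephb3, was found at 7.07% of all genes with a region. Without Ephb1 the EphB receptors had 6 dKO-only and 9 WT-only regions among 33.

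The ephrin-A ligands were dominated by Efna5, which held 57 of their 74 regions. Efna5 (chromosome 17, 62602957 to 62881317) had 7 dKO-only, 13 WT-only and 37 shared regions. Its single-genotype regions were interleaved with shared ones along the whole locus, and 1 WT-only and 1 dKO-only peak lay side by side at 62598692 to 62598976 and 62598996 to 62599272. The strongest WT-only region of all guidance genes was 29.8 kb past its 3′ end (62572740 to 62573533), with a pileup of 135 and a fold of 8.86, at the 70.5 percentile of WT strength. The strongest dKO-only region lay 59.6 kb before the start, with a fold of 7.28, at the 54.5 percentile of dKO strength. All 3 single-genotype regions before the start were dKO-only. The Efna5 net count was -6, and with lists of equal length it was 2. Of all genes with a region, 1.37% had a net count of -6 or less, but their median was 2 regions against 57 at Efna5.

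Efna1, Efna3 and Efna4 lie together on chromosome 3, and a region between them can belong to any of these genes. Efna1 had 2 dKO-only, 1 WT-only and 3 shared regions, Efna3 had 1, 1 and 4, and Efna4 had 0, 0 and 3. Efna2 had 0, 1 and 1. Its WT-only region, 9.6 kb from the gene (chromosome 10, 80199412 to 80199859), had the same pileup of 80 and fold of 12.9 as the strongest at Epha4, and these came after the Efna5 region in WT strength.

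Efnb2, the class B ephrin of arteries and of many epithelia, had the strongest shared regions of the guidance genes. Its start (chromosome 8, 8658856 to 8662091) had a pileup of 636 and a fold of 11.4 in the dKO list and a pileup of 1007 and a fold of 7.81 in the WT list, at the 99.97 and 99.5 percentiles. A region 21.3 kb into the gene had a pileup of 424 in the dKO list and 820 in the WT list. One 14.4 kb past the 3′ end had 271 in the dKO list and 516 in the WT list. Efnb2 had 1 dKO-only and 4 WT-only regions beside 8 shared ones, and these were weak, at or below the 25.2 percentile of their lists. Efnb3 had 1 shared region.

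Slit3 had the largest WT-only excess of the guidance genes. The secreted ligand gene (chromosome 11, 35121456 to 35708507) had 3 dKO-only, 16 WT-only and 16 shared regions. Of all genes with a region, 0.0895% had an excess of 13 or more WT-only regions, but their median was 2 regions against 35 at Slit3. Of the 16 WT-only regions 14 lay in the 587.1 kb gene body. A group of 4 stood within 3.9 kb (35390010 to 35393877), about 270 kb into the gene, with folds of 4.84, 3.54, 4.23 and 2.61 in the WT list and no dKO peak among them. The last 3 regions of the locus were also all WT-only, ending with one of pileup 78 and fold 9.04, 29.0 kb past the gene (35736922 to 35738438). Another, 167.3 kb into the gene (35288182 to 35289148), had a pileup of 80 and a fold of 7.84. The WT-only folds had a median of 4.37 and their strength percentiles a median of 21.8. The strongest of the 3 dKO-only regions lay 28.4 kb into the gene (35149431 to 35150157), with a pileup of 45 and a fold of 10.07. The start was covered in both lists, with a pileup of 49 in the dKO list and 159 in the WT list. A shared region 565.8 kb into the gene (35686743 to 35687911), named after its values were seen, had a pileup of 16 and stood at the 19.1 percentile of the dKO list, and had 489 and stood at the 96.3 percentile of the WT list. Another, 75.5 kb in, had 11 and the 2.96 percentile in the dKO list and 122 and the 68.96 percentile in the WT list. Such regions count as shared although their ranks differ, and no change was read from ranks in lists of unequal length. Slit1 had 0 dKO-only, 1 WT-only and 2 shared regions, and Slit2 had 1 shared region, at its start. Without Slit3 the Slit ligands had 0 dKO-only and 1 WT-only region among 4, too few to give a share for the role.

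The Robo receptors, which bind Slits, had 17 dKO-only and 14 WT-only regions among 54. The dKO-only share was 31.5% (20.7 to 44.7), against 12.8% of all assigned regions and 20.7% of those at genes over 300 kb. The WT-only share was 25.9% (16.1 to 38.9), against 21.2% and 22.5%. Robo1 and Robo2, both over 300 kb, held 8 dKO-only regions each. Robo1 (chromosome 16, 72027518 to 73047491) had 8 dKO-only, 5 WT-only and 4 shared regions. Its dKO-only regions came in runs of 3 (72350092 to 72615358) and of 4 (72811355 to 72878739), and the eighth lay 1042.6 kb after the 5′ end of the gene body. The 5 WT-only regions lay between 869.9 and 1071.5 kb. Both dKO-only runs lay nearer the 5′ end than all of these, at 850.9 kb or less, and only the eighth dKO-only region lay among them. The Robo1 start in the promoter table is 635.6 kb into the gene body. It was covered in both lists, with a pileup of 197 in the dKO list and 120 in the WT list.

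Robo2 (chromosome 16, 73891976 to 75447443) had 8 dKO-only, 9 WT-only and 14 shared regions. It held the strongest dKO-only region of all guidance genes (74526407 to 74527117), with a pileup of 70 and a fold of 14.4, at the 78.5 percentile of dKO strength. Another of its dKO-only regions (74324322 to 74324967), of fold 10.8, was the fifth strongest. A run of 4 WT-only regions (74159020 to 74235697) stood in the same gene. Of 3 starts in the table, the one 1035.6 kb into the body was covered, with a pileup of 199 in the dKO list and 296 in the WT list, and the other two had no peak within 1 kb. All 31 Robo2 regions lay beyond the upstream starts, the first 753.8 kb into the body. Robo3, a divergent receptor of commissural axons, had 4 shared regions, and Robo4, known from blood vessels, had 1 dKO-only and 1 shared region.

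**Figure D3:**
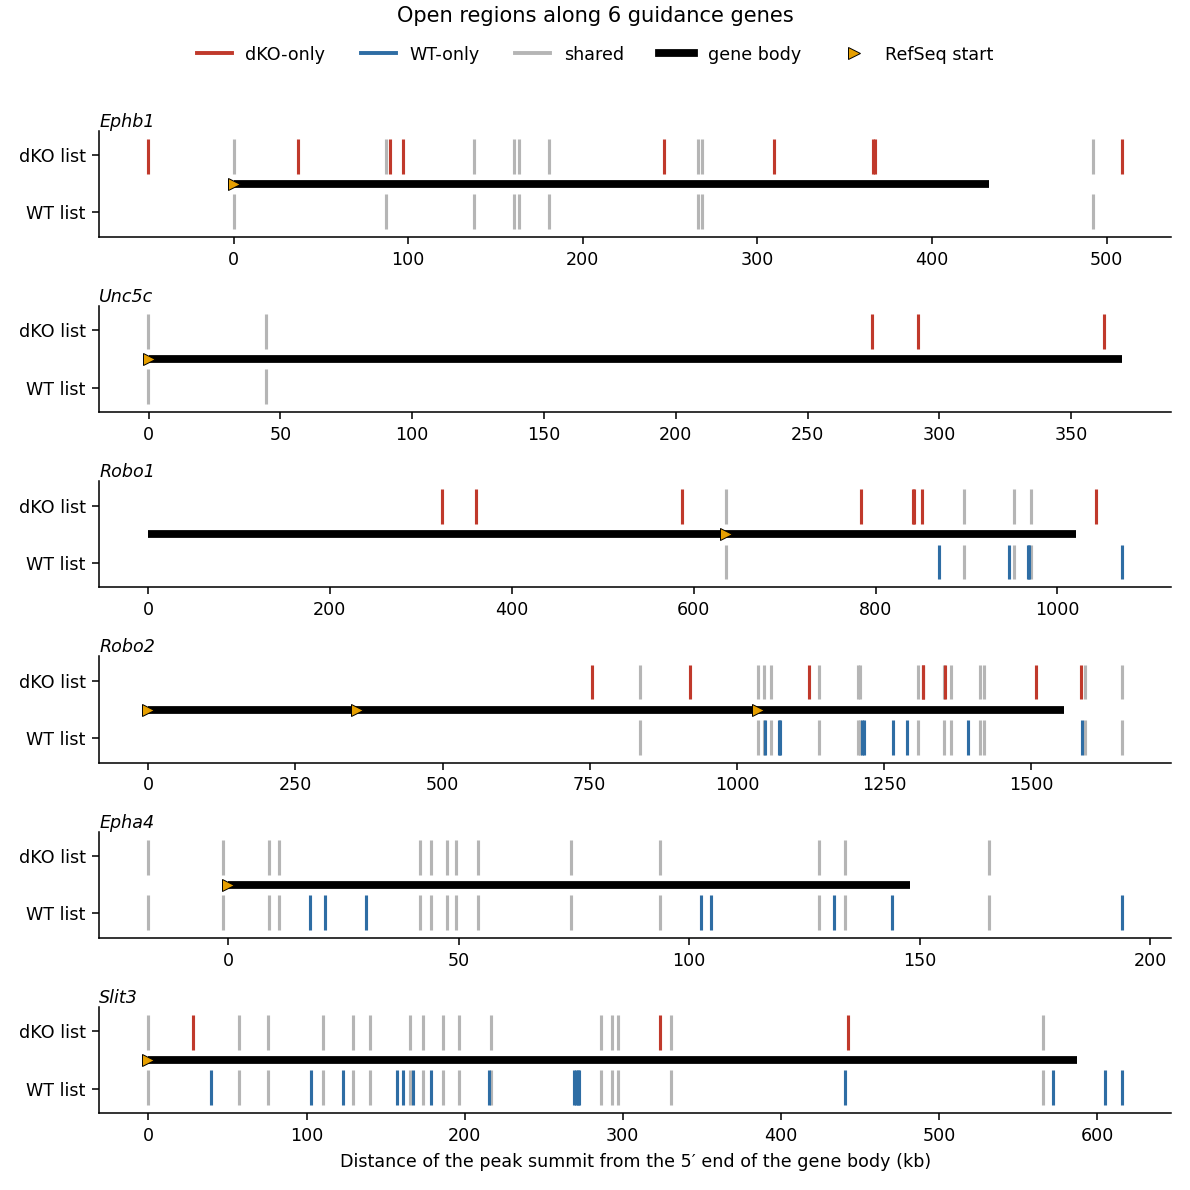
Position of each region's summit along 6 genes, in kb from the 5′ end of the gene body (black bar), with dKO-list regions above and WT-list regions below; grey lines are shared regions and arrowheads are starts of the RefSeq promoter table. Coloured lines stand above the bar alone at Ephb1 and Unc5c and below it alone at Epha4, and Slit3 shows 4 WT-only regions within 3.9 kb.

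Ntn1, the best studied netrin, had WT-only regions and a single shared one. Ntn1 (chromosome 11, 68209364 to 68386826) had 0 dKO-only, 4 WT-only and 1 shared region. Of all genes with a region, 3.79% had an excess of 4 or more WT-only regions. The WT-only folds were 6.2, 3.5, 2.7 and 3.18, so 3 of them were at or below the 8.9 percentile of WT strength. The shared region covered the higher-coordinate end of the gene, with a fold of 7.23 in the dKO list and 6.43 in the WT list. Ntn4, a netrin of basement membranes, had 2 dKO-only, 2 WT-only and 3 shared regions. Ntn5 had 0 regions, since the peaks within 1 kb of its start, present in both lists, were nearest to Sec1.

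The repulsive netrin receptors Unc5c and Unc5d had dKO-only regions and no WT-only region. Unc5c (chromosome 3, 141465564 to 141834924) had 3 dKO-only and 2 shared regions, and 2.54% of all genes with a region had an excess of 3 or more dKO-only regions. All 3 lay in the last part of the gene, 274.5, 291.9 and 362.6 kb from the start. The middle one (141756640 to 141757833) had a pileup of 53 and a fold of 11.1, the third strongest dKO-only region of the guidance genes. The first and last were weak, with pileups of 14 and 11 and folds of 4.02 and 3.22, at the 12.45 and 2.96 percentiles of dKO strength. The Unc5c net count fell from 3 to 1 with q of at most 1e-05, and also with single-list regions from the stronger 50%. Unc5d (chromosome 8, 28646717 to 29219671) had 4 dKO-only and 3 shared regions, and 1.24% of all genes with a region had an excess of 4 or more. The dKO-only folds of Unc5d were 2.71, 3.90, 7.60 and 7.18.

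Unc5b, a receptor of vascular endothelium and epithelia, had 0 dKO-only, 3 WT-only and 9 shared regions, and one of the WT-only regions lay 1.5 kb before its start. Unc5a had 1 shared region. Of the netrin receptors that mediate attraction, Neo1 (chromosome 9, 58874679 to 59036614), a broadly expressed relative of Dcc, had 1 dKO-only, 4 WT-only and 7 shared regions, and Dcc had 0 regions in a gene body of 1097.6 kb. Of the 4 WT-only regions at Neo1, 2 lay next to each other about 150 kb into the gene (58886100 to 58887219), the second with a fold of 8.91.

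Most single-genotype regions of the guidance genes were weak peaks, as in the rest of the lists. For dKO-only regions, the share in the stronger 50% was larger than over all assigned regions. The dKO-only regions had a median fold of 4.06 and a median strength percentile of 15.9 within the dKO list, where percentiles rank all peaks of a list by the deposited −log10 q. Over all assigned regions the dKO-only percentile was 18.2. The WT-only regions had a median fold of 3.59 and a median percentile of 18.8 within the WT list, against 21.5 for all assigned WT-only regions. The stronger 50% of each list held 10 of the 57 dKO-only regions (17.5%, against 8.53% over all assigned regions) and 11 of the 83 WT-only regions (13.3%, against 12.0%). The shared regions had median percentiles of 55.1 in the dKO list and 54.3 in the WT list, below the 59.3 and 62.0 of all assigned shared regions. The dKO-only regions lay a median of 15.1 kb from the nearest WT peak, against 7.14 kb over all assigned dKO-only regions. Of the 57, 35 were at genes over 300 kb, and the part of region spacing in such genes was not tested. The WT-only regions lay 5.83 kb from the nearest dKO peak, against 5.91 kb.

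**Figure D4:**
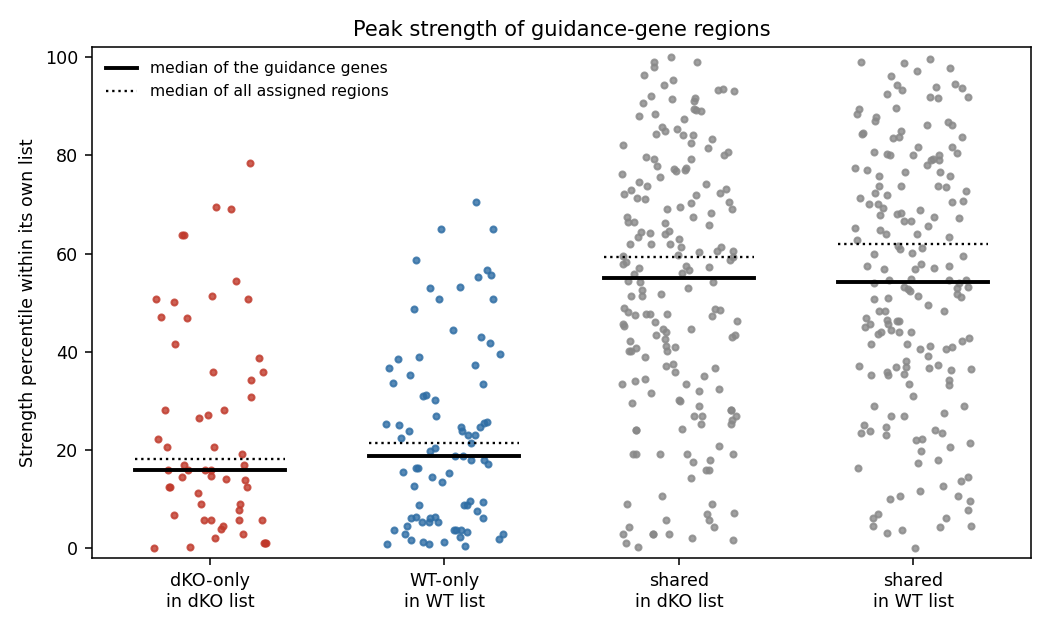
Strength percentile of each guidance-gene region within its own list (0 weakest, 100 strongest, by deposited −log10 q), for dKO-only, WT-only and shared regions; solid lines are medians of the guidance genes and dotted lines medians of all assigned regions. Single-genotype regions lie mostly in the lower part of their lists, with medians of 15.9 and 18.8, and reach 78.5 in the dKO list and 70.5 in the WT list.

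At gene ends, within 1 kb of either end of a body, 24 of 25 regions were shared, 1 was dKO-only (4.0%, against 3.55% of all gene-end regions) and 0 were WT-only (against 6.03%). Inside gene bodies 34 of 198 regions were dKO-only (17.2%, interval 12.6 to 23.0), against 14.3% of all gene-body regions, and 58 were WT-only (29.3%, 23.4 to 36.0), against 25.5%. Outside the genes 22 of 99 were dKO-only (22.2%, 15.2 to 31.4), against 15.7%, and 25 were WT-only (25.3%, 17.7 to 34.6), against 22.8%.

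Long guidance genes held most of the dKO-only regions. The 11 genes over 300 kb had 35 dKO-only and 30 WT-only regions among 117. Their dKO-only share was 29.9% (22.4 to 38.7), against 20.7% for all genes of that length, and their WT-only share 25.6% (18.6 to 34.2), against 22.5%. The dKO-only share rested mainly on Ephb1, with 9 of the 35, and Robo1 and Robo2, with 8 each. Epha3, Epha5, Epha6, Slit2 and Dcc, of the same length class, had 0. The 8 genes of 100 to 300 kb, among them Epha4, Efna5, Ntn1 and Neo1, had 11 dKO-only and 33 WT-only regions among 110, shares of 10.0% (5.68 to 17) and 30.0% (22.2 to 39.1), against 14.8% and 23.1%. The 18 genes under 100 kb had 11 and 20 among 95, shares of 11.6% (6.59 to 19.6) and 21.1% (14.1 to 30.3), against 10.6% and 20.2%. The part of gene length in the differences between roles was not tested.

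Genes that act with these ligands and receptors had a net share close to that of all assigned regions. Of 44 such genes, 43 had a region. More dKO-only regions were found at 7 of the 43 (16.3%, against 16.5% of all genes with a region), more WT-only regions at 23 (53.5%, against 34.2%) and equal numbers at 13. They had 80 dKO-only (14.7%, 11.9 to 17.9) and 131 WT-only regions (24.0%, 20.6 to 27.7) among 546, and a net share of -9.34%, against -8.35% for all assigned regions. These 43 genes had a median of 10 regions and a median length of 119 kb, more than the 2 regions and 23.6 kb of all genes with a region, so a gene count is not on an equal footing here either. The median net count per gene was -1 for this list and 0 for all genes with a region. A difference of 3 or more towards dKO was found at 3 of the 43 (6.98%, against 2.54% of all genes with a region) and towards WT at 11 (25.6%, against 7.07%). Towards WT, Trio, which acts downstream of netrin receptors, had 2 dKO-only and 10 WT-only regions. Tiam1, a Rac exchange factor that binds Eph receptors, had 4 and 11, and Sipa1l1, a Rap regulator, had 3 and 9. The kinase gene Src had 0 and 5, and the GTPase gene Cdc42 had 0 and 4. Srgap3, encoding a Slit-Robo GTPase-activating protein, had 1 and 5, and Dock1, a Rac activator, also had 1 and 5. Ngef, which encodes an exchange factor bound by EphA receptors, had 0 dKO-only and 3 WT-only regions. Among kinase genes, Rock1 had 0 and 3, Rock2 had 1 and 4, and Fyn had 2 and 5. Towards dKO, the adaptor gene Nck2 had 10 dKO-only and 5 WT-only regions, Ntng1, encoding the membrane-bound netrin G1, had 4 and 0, and Flrt2, encoding a ligand of Unc5 receptors, had 3 and 0. Rhoa had 0 regions.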

How the data were processed

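Per the submitters' processing notes, the tools were Bowtie2 2.2.9, Picard and MACS2, listed without role or order, and the builds mm10 and GRCm38. Both peak tables follow the MACS2 layout, per the file headers, with 1 list per genotype. The sources used here do not say how mice were combined, reads shifted or duplicates treated. The deposited signal is the pileup at the summit, not scaled for depth. The deposited fold is a ratio, pileup over local background with 1 added to each. The deposited −log10 p and −log10 q values rate each peak against its background. Damaged header cells left these columns unnamed. They were told by place in the layout, and a Poisson p computed from pileup and background fell within 0.01 of the deposited −log10 p in 100.0% of 62822 dKO and 99.98% of 62811 WT peaks tested.

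Mitochondrial peaks, 3 in the dKO list and 5 in the WT list, were left out. Peaks sharing 1 bp or more formed a region, computed with Python 3.11.15 and pandas 2.3.3, and the overlapping peaks matched bedtools 2.31.1 with a difference of 0. A summit inside several gene bodies went to the shortest. Genes came from a RefSeq table of GRCm38.p6 with 21900 protein-coding genes. Exons were not used here. Starts and strand came from the RefSeq promoter table, which matched 32 of the 37 members. The joining and assignment steps were tested on simulated peaks, all inside gene bodies and with the true genes preferred where bodies overlapped. The shortest-gene rule and the assignment of regions outside genes were not tested in this way.

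Described region by region are members whose dKO-only and WT-only counts differ by 2 or more, the 5 strongest regions per class, and downstream genes with a difference of 3 or more. The members and lists were chosen with earlier results of these data known. Intervals are Wilson 95% intervals and treat regions as independent. Alternative settings asked for 50% of the shorter peak to overlap, for summits at most 200 bp apart, or for q of at most 1e-05. Others used lists of equal length, a WT list thinned to the background of dKO, single-list regions from the stronger 50%, genes within 20 kb, region midpoints, and gene bodies alone. Giving overlapping gene bodies to the member was added after the data were seen.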

Additional observations from a re-analysis of the deposited data

How the results depend on the processing

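The dKO-only share of 17.7%, the WT-only share of 25.8% and the net share of -8.07% stayed within their counting intervals under 8 of 10 settings. With lists of equal length the WT-only share was 19.8% and the net share turned to 2.01%, against 18.0% and -2.58% for all assigned regions. That setting cuts the WT list and so lowers WT-only counts by construction. With single-list regions from the stronger 50% alone, which removes weaker single-list regions by construction, the shares were 4.93% dKO-only and 5.42% WT-only and the net share was -0.493%. For all assigned regions the same setting gave 1.57%, 3.64% and -2.07%. Thinning WT peaks down to the dKO background gave a net share of -5.71%, against -6.67% for all assigned regions. Of the 12 genes described region by region, Efna5 turned from -6 to 2 and Efnb2 from -3 to 1 with lists of equal length. Efnb2 and Ntn1 came to 0 with single-list regions from the stronger 50%. The other 9 genes kept their direction in all 10 settings, with Ephb1 between 2 and 10, Slit3 between -13 and -2 and Epha4 between -8 and -1. Ephb3, Unc5b and Neo1 also came to -1, and Unc5c and Unc5d to 1, in at least 1 setting. Settings that cut only the WT list can move a gene only towards dKO. The direction of Ephb1, Robo1, Unc5c and Unc5d under those settings was therefore fixed in advance. Giving overlapping gene bodies to the member added 1 region, the dKO-only one at Epha5. No paired analysis was possible because each genotype has 1 list and the mouse numbers 13 to 16 differ between groups, and leaving out a mouse could not be run for the same reason. Depth limits weak peaks most: the lower background of the dKO list, 2.73 against 5.29, cannot be told apart from loss of weak regions in dKO cells.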
